A study of Mus musculus with 27 samples.

Results

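Transcripts of 10 genes of fibroblast growth factor (FGF) signalling were followed through the development of the mouse esophagus and in mice that lack Nrf2, Keap1 or both. The genes were the ligands Fgf7 and Fgf10, the receptors Fgfr1, Fgfr2 and Fgfr3, the feedback inhibitors Spry1, Spry2, Spry4 and Dusp6, and the transcription factor Etv5. They were chosen by name, with earlier results of these data known. They are 10 of the 28508 genes on the array, and 20 of its 41174 probes carry one of these names. Fgf7, Fgf10, Spry1 and Dusp6 had 1 probe each, Spry2, Spry4 and Etv5 had 2, Fgfr2 and Fgfr3 had 3, and Fgfr1 had 4.

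RNA of individual esophagi was labelled with Cy5 and hybridised against Universal Mouse Reference RNA in Cy3, on 27 two-colour arrays, 3 in each of 9 groups. Whole wild-type (WT) esophagi came from embryos (E11.5 or E15.5), newborns (P0) and pups (P7). Pups of the genotypes Nrf2-/-, Keap1-/- or Nrf2-/-Keap1-/- gave whole esophagi too. WT mice were C57BL/6J, and the mutant lines were on a C57BL background whose substrain the paper does not name. The knockouts are constitutive, not limited to a cell type. WT and Nrf2-/- adults of 8 weeks gave esophageal epithelium alone, so that age and tissue cannot be told apart between P7 and adult. Every level below is the mean over a gene's probes of log2 Cy5/Cy3, that is, the level relative to the reference RNA. Such ratios compare groups for 1 gene and do not rank one gene against another.

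The FGF pathway is a classic route of talk between mesenchyme and epithelium. Mesenchymal cells secrete Fgf7 and Fgf10, and epithelial cells receive them mainly through a splice form of Fgfr2. Receptor tyrosine kinases of this family act through FRS2, RAS and the kinases MEK and ERK. ERK activity induces ETS factors such as Etv4 and Etv5, and it also induces its own brakes, the Sprouty proteins, which damp the pathway upstream of ERK, and Dusp6, a phosphatase that removes phosphate from ERK itself. In the early foregut, FGF signals from the mesenchyme take part in the parting of trachea and esophagus. Nrf2 (gene symbol Nfe2l2) is a transcription factor of the antioxidant response, and Keap1 holds it inactive.

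Some libraries stood apart. Across the genes tested, array replicate 3 of E11.5 correlated at 0.98 with both E15.5 replicates 2 and 3, and at 0.77 to 0.83 with the other E11.5 arrays. Replicate 1 of E15.5 correlated at 0.93 to 0.96 with E11.5 replicates 1 and 2, and at 0.80 to 0.81 with the other E15.5 arrays. The labels were kept. Results of the 10 genes that rest on either array, and those of the pathway genes named, are given with and without both. The mean of the embryonic arrays was also compared with P0, since the estimate of that comparison does not need to know which embryonic label is right. Its SE and its calls do depend on the labels, since the spread was taken within labelled groups. Nfe2l2 fell from -0.26 in WT P7 to -3.89 in Nrf2-/- and -4.12 in Nrf2-/-Keap1-/- esophagi, and from 0.98 in WT adult to -3.32 in Nrf2-/- adult. The Keap1 transcript read 0.20 ± 0.45 (SD, n = 3) in the arrays labelled Keap1-/- against 0.65 ± 0.30 in WT P7, which did not pass the test (adjusted p = 0.145), and -0.34 ± 0.16 in Nrf2-/-Keap1-/- P7 (adjusted p = 0.0789), so that the transcript does not settle the label. Nqo1, a target of Nrf2, stood at 4.04 in Keap1-/- against -0.86 in WT P7. All 3 Keap1-/- arrays shared 1 slide, 1 scan and a newer software version with no other group on that slide, so that genotype and scan cannot be told apart there.

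The make-up of the samples was read from squamous, fibroblast, skeletal muscle and smooth muscle markers, averaged over their lists on each array. The fibroblast list of 9 genes ranged from 1.01 to 1.29 in WT P7, from 0.04 to 0.35 in Keap1-/- P7, from 1.09 to 1.35 in Nrf2-/-Keap1-/- P7 and from -0.68 to -0.22 in WT adult. The squamous list of 8 genes, which includes Krt5, Krt14 and Trp63, ranged from 1.30 to 3.22 at E11.5, from 3.83 to 4.06 at P0, from 4.10 to 4.66 in WT P7 and from 4.61 to 4.93 in WT adult. The skeletal muscle list of 9 genes rose from between 0.11 and 0.85 at E11.5 to between 3.34 and 4.37 in WT P7 and stood between 0.23 and 0.95 in WT adult, where every one of its members was still well above background. In whole esophagi, fewer cells of a type and less RNA per cell cannot be told apart.

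**Figure D1:**
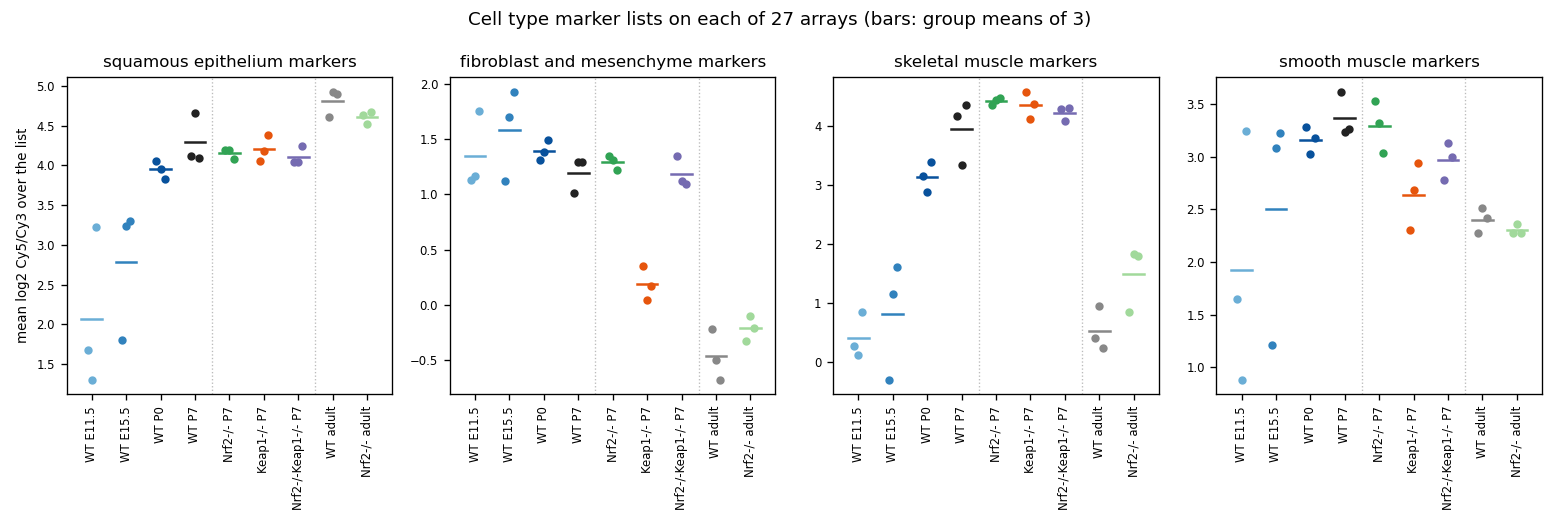
Mean log2 Cy5/Cy3 of the squamous, fibroblast, skeletal muscle and smooth muscle marker lists (y axis) on each of the 27 arrays, grouped by age, genotype and tissue on the x axis; each point is 1 array. The 3 Keap1-/- arrays lie between 0.04 and 0.35 for the fibroblast list, below all other whole-esophagus arrays, and the adult epithelium lies lower still.

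Both ligands were read at low ratios. Fgf7 (chr2:126034658-126091185 on GRCm38.p6), keratinocyte growth factor, which mesenchyme makes and epithelium receives, was highest at P0, where its 3 arrays read -1.96, -1.80 and -1.84. The E15.5 arrays read -4.10, -2.95 and -3.26, and the E11.5 arrays -3.97, -1.90 and -2.89, so that the embryonic arrays were far more scattered, and all but 1 of them, at -1.90, lay below the P0 arrays. Its P0 arrays lay above all arrays of the next group in the order of means, Nrf2-/- P7 (mean -2.29), and from there down every neighbouring pair of groups overlapped. At E11.5 and at E15.5 the Fgf7 probe was well above background on 2 of 3 arrays.

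Fgf10 (chr13:118714699-118792573), the main mesenchymal ligand of the early foregut and lung, was lower at each later age. It read -0.74, -0.65 and -1.08 at E11.5 and -0.81, -0.99 and -1.05 at E15.5, which overlapped. P0 followed at -1.29, -1.23 and -1.13, and WT P7 at -1.48, -1.40 and -1.58, each below all arrays of the younger group. Nrf2-/- P7 and Nrf2-/-Keap1-/- P7 overlapped with WT P7, at means of -1.49 and -1.43, whereas the Keap1-/- arrays, at -1.58, -1.75 and -1.80, reached no higher than its lowest. In WT adult epithelium the probe was not well above background on any array, and in WT P7 it was on 2 of 3, which bounds the adult level at at least 1.2-fold lower than P7.

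The receptors differed in pattern. Fgfr1 (chr8:25518759-25575718), the receptor form most widespread in mesenchyme, showed no step among the 7 groups of whole esophagus, whose means lay between -0.02 (WT P7) and 0.20 (Nrf2-/- P7) and whose neighbours all overlapped. Both adult groups lay below them, at -0.75, -0.57 and -0.84 in WT and -0.84, -0.57 and -0.84 in Nrf2-/-. Fgfr2 (chr7:130162451-130266808), the receptor through which epithelium receives Fgf7 and Fgf10, held between 1.41 and 1.66 in the means of the same 7 groups, with every neighbouring pair overlapping. Adult epithelium stood above them, at 1.99, 2.22 and 2.35 in WT and 2.04, 2.16 and 1.97 in Nrf2-/-, an order that depends on the treatment of the local background (tested with the adult comparison).

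Fgfr3 (chr5:33721724-33737068), a receptor of stratified epithelia among other tissues, spread more over the 9 groups than any other member, by 2.37 on the log2 scale between the highest and the lowest mean (5.17-fold). It read 0.71, 0.60 and 1.39 at E11.5 and 0.73, 1.37 and 1.36 at E15.5. At P0 it read 2.30, 2.57 and 2.39, and in WT P7 1.87, 1.86 and 2.45, all above all embryonic arrays. Nrf2-/- P7 at 1.99, 2.06 and 1.76 and Nrf2-/-Keap1-/- P7 at 1.95, 1.98 and 2.15 overlapped with WT P7.

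The Keap1-/- arrays broke that run. They read 0.27, 0.46 and 0.43 for Fgfr3, which was the lowest group of the 9 and lay below every array of E11.5 as well. Adult epithelium was at the other end, with 2.44, 2.42 and 2.54 in WT and 2.57, 2.73 and 2.97 in Nrf2-/-, a pair of groups that did not overlap.

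Among the feedback inhibitors, Spry1 (chr3:37639947-37644599) read 0.19, 0.31 and 1.36 at E11.5 and 0.74, 1.33 and 1.27 at E15.5. P0 reached 1.86, 2.02 and 2.10 and WT P7 held 1.46, 1.32 and 1.90. Only the P0 arrays, and not those of P7, were all above the highest embryonic array. At P7, Keap1-/- read 1.07, 1.23 and 1.43, Nrf2-/- 1.76, 1.78 and 1.85, and Nrf2-/-Keap1-/- 2.19, 1.89 and 1.95, so that Keap1-/- overlapped with WT and lay below both other mutants. Adult epithelium spread from 1.05 to 1.66 in WT and from 1.53 to 1.94 in Nrf2-/-, with overlap.

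Spry2 (chr14:105891947-105896819) was lowest in Keap1-/- P7 and in both adult groups. It read 0.85, 0.86 and 0.81 at E11.5, 0.88, 0.97 and 0.63 at E15.5, 0.99, 1.17 and 1.02 at P0 and 0.86, 0.40 and 0.90 in WT P7, so that the P0 arrays lay above those of all other WT ages. Keap1-/- P7 stood at 0.29, 0.12 and -0.15, and adult epithelium at 0.02, 0.23 and -0.17 in WT and 0.10, 0.07 and 0.51 in Nrf2-/-. Those 3 groups overlapped with one another and, in the order of means, did not overlap with Nrf2-/-Keap1-/- P7 above them, which read 0.70, 0.55 and 0.68.

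Spry4 lay between 0.00 and 0.40 in the means of all whole-esophagus groups, each overlapping with its neighbours. It read -0.78, -0.37 and -0.65 in WT adult and -0.67, -0.73 and -0.56 in Nrf2-/- adult epithelium, below all other arrays. One of its 2 probes was not well above background on any of the 27 arrays, and the other was on 1 of 3 WT adult arrays, so that the adult level of Spry4 is close to a bound.

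Dusp6 (chr10:99263231-99267489) was lower in adult epithelium too. It read -0.89, -0.98 and -0.83 at E11.5, -0.79, -0.88 and -0.86 at E15.5, -0.14, -0.59 and -0.41 at P0, and -0.57, -0.85 and -0.38 in WT P7. Keap1-/- P7, between -0.94 and -0.35, and Nrf2-/-Keap1-/- P7, between -0.83 and -0.27, overlapped with WT P7, and Nrf2-/- P7, at -0.22, -0.32 and -0.21, lay above it. WT adult epithelium stood at -2.03, -2.27 and -2.27 and Nrf2-/- adult epithelium at -1.46, -1.77 and -1.67, below all whole-esophagus arrays and apart from each other. Etv5 (chr16:22381313-22439570), the ERK-induced ETS factor, varied least, by 0.52 on the log2 scale between its highest and lowest mean (1.43-fold), and all 8 neighbouring pairs in its order of groups overlapped, from Nrf2-/-Keap1-/- P7 (-0.08 ± 0.22, SD, n = 3) down to WT adult (-0.60 ± 0.15).

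**Figure D2:**
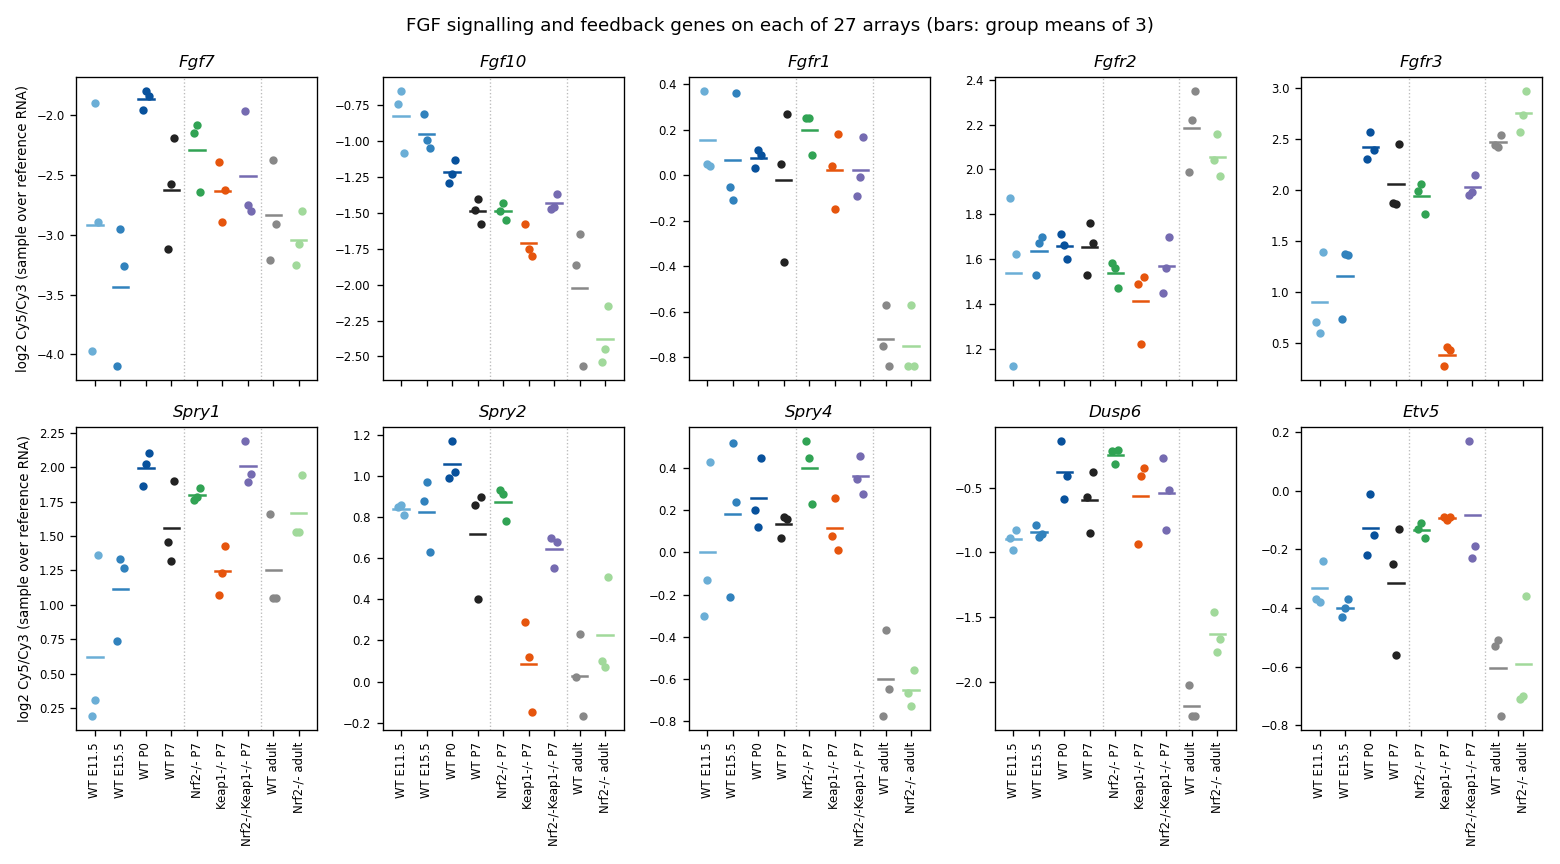
Log2 Cy5/Cy3 (y axis) of the 10 FGF genes, one panel per gene, in the 9 groups on the x axis; each point is 1 array and each bar the mean of 3. Fgfr3 sits between 0.27 and 0.46 in Keap1-/- P7, below all other groups, and Dusp6 sits between -2.27 and -1.46 in adult epithelium, below all whole-esophagus arrays.

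The upstream sequences of Fgfr3, Spry2 and Dusp6 are shown because they are a receptor, a Sprouty and the phosphatase that were called in Keap1-/- esophagi or in adult epithelium. Each is the 250 bases before the transcription start in RefSeq on GRCm38.p6, read 5′ to 3′ on the strand of the gene. Capitals mark a match to TGACNNNGC, the core of the antioxidant response element to which Nrf2 binds.

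Fgfr3, chr5:33721474-33721723, plus strand: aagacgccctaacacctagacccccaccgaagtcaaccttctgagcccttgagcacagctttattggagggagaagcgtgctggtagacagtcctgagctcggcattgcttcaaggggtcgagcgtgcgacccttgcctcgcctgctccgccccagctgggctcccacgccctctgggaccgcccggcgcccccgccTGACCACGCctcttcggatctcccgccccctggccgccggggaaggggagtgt
Spry2, chr14:105896820-105897069, minus strand: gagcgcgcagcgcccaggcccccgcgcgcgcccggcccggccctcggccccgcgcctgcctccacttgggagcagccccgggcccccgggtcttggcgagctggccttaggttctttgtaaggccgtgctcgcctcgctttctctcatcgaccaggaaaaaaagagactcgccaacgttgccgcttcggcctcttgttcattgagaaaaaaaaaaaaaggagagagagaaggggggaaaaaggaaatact
Dusp6, chr10:99262981-99263230, plus strand: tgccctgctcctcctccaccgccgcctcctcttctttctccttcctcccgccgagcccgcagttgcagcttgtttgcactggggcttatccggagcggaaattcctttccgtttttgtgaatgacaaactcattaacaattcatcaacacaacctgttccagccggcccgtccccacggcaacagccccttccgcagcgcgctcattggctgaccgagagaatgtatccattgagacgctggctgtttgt

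Motifs were searched on both strands from 250 bases before to 50 bases after each start, in 10 RefSeq entries of the 8 members that have one. TGACNNNGC was found in 1 entry, the Fgfr3 entry printed above, where it begins 53 bases before the start, against 12.4% of all 32851 promoters. The other Fgfr3 entry (chr5:33722056-33722355) held no match. CCGGAA, the core that ETS factors bind, was found in 1 entry, 34 bases after the start of Spry2, against 14.9%. TGACTCA, the AP-1 motif, was found in none, against 5.2%. These are matches of letters alone.

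The metaplasia phase, from E11.5 over E15.5 and P0 to P7, asks how the pathway changed while a simple columnar lining became a keratinized stratified one. Tests were limma's moderated tests, with p adjusted over all genes tested and a call at an adjusted p of at most 0.05. Between E11.5 and E15.5, as labelled, no member was called, and none of the 10 passed an unadjusted p of 0.05 (0% of all 19925 genes called). Without the pair of doubtful arrays, 13.8% of genes were called, among them Spry1 (+1.05 ± 0.19, SE, adjusted p = 0.00611), Fgfr3 (+0.71 ± 0.20, adjusted p = 0.0445) and Spry4 (+0.59 ± 0.15, adjusted p = 0.0333). Within the slide that held E15.5 replicate 1 and all E11.5 arrays, the difference was -1.18 for Fgf7 and between -0.21 and 0.12 for the other 9 members. That contrast contains both doubtful arrays, with replicate 1 as its only E15.5 array, so that it cannot test the calls made without them.

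By P0, Fgfr3, Spry1, Fgf7 and Dusp6 had risen and Fgf10 had fallen. From the embryonic mean to P0, 4 of 10 members rose (15.1% of all genes did) and 1 fell (13.5%), so that 5 of 10 were called beside 28.7% of genes. Fgfr3 rose 2.63-fold (+1.39 ± 0.22, adjusted p = 0.00121), Spry1 2.18-fold (+1.13 ± 0.25, adjusted p = 0.00792), Fgf7 2.48-fold (+1.31 ± 0.40, adjusted p = 0.0328) and Dusp6 1.41-fold (+0.49 ± 0.13, adjusted p = 0.0145). Fgf10 fell by 0.33 ± 0.11 (adjusted p = 0.0475). Fgfr3 was higher with all 3 of its probes, by 1.19 to 1.70.

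Fgfr3 kept this call in all 14 alternative settings. Spry1 kept it in the 13 that gave it a value, and Dusp6 in 12 of 13, with +0.23 under median centring of each array in place of loess. Without outlier-marked spots neither Spry1 nor Dusp6 could be fitted, since the scanner software had marked them on 20 and 16 of the 27 arrays. The only Fgf10 probe was marked on 17 of the 27. Those included all 3 arrays each of E11.5, E15.5 and WT adult, and 1 of 3 at P0, so that its differences between these groups rest largely on marked spots. Fgf7 lost its call in 5 of 14 settings and Fgf10 in 10. Without both doubtful embryonic arrays, Fgfr3 (+1.41, adjusted p = 0.00014), Spry1 (+1.22, adjusted p = 0.000219), Dusp6 (+0.52) and Fgf10 (-0.36) were called and Fgf7 was not (+1.15, adjusted p = 0.0585), beside 34.4% of all genes. Leaving out each of the 12 arrays in turn kept Fgfr3 and Spry1 called every time, and Dusp6 in 11 runs, with +0.37 (adjusted p = 0.0798) without P0 replicate 1. Fgf7 was called in 8 of these runs, with values from 1.05 to 1.57, and was not without E15.5 replicate 1 or any 1 of the P0 arrays. Fgf10 was called in 2 of them, those without E11.5 replicate 3 or E15.5 replicate 3, with values from -0.39 to -0.29.

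The step from E15.5 as labelled to P0 gave 3 called members (19.7% of all genes), all of them higher (11.2%). They were Fgfr3 (+1.27 ± 0.25, adjusted p = 0.00654), Fgf7 (+1.57 ± 0.46, adjusted p = 0.0373) and Dusp6 (+0.46 ± 0.14, adjusted p = 0.0468), and Spry1 was just outside (+0.88 ± 0.29, adjusted p = 0.0581). All 3 P0 arrays lay above all 3 E15.5 arrays for 6 members (Fgf7, Fgfr3, Spry1, Spry2, Dusp6 and Etv5), as they did for 22.8% of all genes. Without both doubtful arrays, Fgfr3 (+1.05) and Spry1 (+0.69, adjusted p = 0.0201) were called beside 19.5% of genes, and Fgf7 (+1.24, adjusted p = 0.116) and Dusp6 (+0.49, adjusted p = 0.0739) were not. Fgf7 and Dusp6 were also lost without E15.5 replicate 1 alone (+1.24 and +0.49) or without P0 replicate 1 alone (+1.62 and +0.34). When each spot kept its own local background, with no limit at 5 times the median of the array, none of the 3 passed (Fgfr3 +1.05, adjusted p = 0.0942), and Fgfr3 alone passed without outlier-marked spots (+1.09), with the processed signals of the scanner software (+1.33), with the deposited ratios (+1.33) and under median centring (+1.00).

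After birth no member was called. From P0 to P7 all 10 had estimates of 0 or below, with a median of -0.25 against 0.01 over all genes. None passed the limma test (2.44% of genes did), and 1, Spry2, passed an unadjusted p of 0.05 (-0.34 ± 0.14, adjusted p = 0.312). Over the whole span from E11.5 to P7, Fgf10 fell by 0.67 ± 0.13 (1.59-fold, adjusted p = 0.0037), beside 13.4% of genes that fell. Fgfr3 rose by 1.16 ± 0.25 (2.23-fold, adjusted p = 0.00684) and Spry1 by 0.94 ± 0.29 (1.92-fold, adjusted p = 0.0334), beside 16.7% that rose and 30.1% called in either direction. The same 3 were called by the F-test over the 4 ages, which called 30% of all genes. Spry1 lost its E11.5 to P7 call without E11.5 replicate 1 (+0.73) or 2 (+0.79) or P7 replicate 1 (+0.99) or 3 (+0.77), and it was +1.31 (adjusted p = 0.000319) without both doubtful arrays. Fgf10 (-0.80, adjusted p = 0.000401) and Fgfr3 (+1.40, adjusted p = 0.000318) also kept the call without both, beside 40.4% of genes, and the F-test then called Spry4 (adjusted p = 0.0407) as well as these 3, beside 45.6%.

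The rest of the pathway was read from 5 lists. Of 13 other Fgf genes tested from the embryonic mean to P0, 1 fell, Fgf5 (-1.46 ± 0.36, adjusted p = 0.0126), and none rose. Of 12 receptors and cofactors, 5 rose and 2 fell, led by Sdc1, a heparan sulfate proteoglycan of epithelia (+1.91 ± 0.25, adjusted p = 0.000457), and Flrt3, a membrane partner of FGF receptors (-1.44 ± 0.14, adjusted p = 8.57e-05). Fgfbp1, which carries FGFs out of the matrix, had the largest estimate (+2.57 ± 0.87, adjusted p = 0.0479) and was called in 3 of 12 runs with 1 array left out, those without E11.5 replicate 3 or E15.5 replicate 2 or 3, with values from 2.01 to 3.15.

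Inside the cell, 4 of 18 transducers rose and none fell, among them Hras (+0.89 ± 0.19), Map2k1, which encodes MEK1 (+0.64 ± 0.13), and Mapk3, which encodes ERK1 (+0.55 ± 0.18). Of 8 other feedback inhibitors 1 rose, Dusp4, a nuclear phosphatase of ERK, by 3.16-fold (+1.66 ± 0.22, adjusted p = 0.000485). Of 10 other ERK-responsive transcripts 3 rose and 1 fell, namely Ier3 (+3.11 ± 0.52), Fos (+2.19 ± 0.55), Egr1 (+1.94 ± 0.50) and Ccnd1 (-0.93 ± 0.13). Fos, Egr1 and Ier3 are immediate early genes. Leaving out P0 replicate 2 ended the calls of Fos (+2.10), Egr1 (+1.91) and Fgf5 (-1.42), leaving out P0 replicate 1 those of Egr1 (+1.77) and Fgf5 (-1.41), and Mapk3, between 0.41 and 0.63, was called in 6 of the 12 runs. Without both doubtful arrays all 12 genes named from these lists kept their calls, with Fgf5 at -1.38, Sdc1 at 1.78, Flrt3 at -1.45, Fgfbp1 at 2.60, Hras at 0.84, Map2k1 at 0.60, Mapk3 at 0.44, Dusp4 at 1.60, Ier3 at 2.90, Fos at 1.89, Egr1 at 1.60 and Ccnd1 at -1.05. Across the same step all 9 skeletal muscle markers rose, 3 of 8 squamous markers rose, and 3 of 9 fibroblast markers fell, and their part in these results was not tested.

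At P7 the 4 genotypes ask which changes need Keap1, Nrf2 or both. Loss of Nrf2 alone called none of the 10 members, and 1, Spry4, passed an unadjusted p of 0.05 (+0.27, adjusted p = 0.416). Of all 19256 genes, 0.0156% were called. Spry4 and Dusp6 were higher on all 3 Nrf2-/- arrays than on all WT arrays, as 8.14% of genes were.

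In Keap1-/- esophagi Fgfr3, as the mean of its 3 probes, was 3.19-fold lower than in WT (-1.67 ± 0.16, adjusted p = 2.79e-05) and Spry2 1.55-fold (-0.63 ± 0.15, adjusted p = 0.00788). Those were 2 of 10 members lower and 0 higher, beside 18% and 15.3% of all genes, so that the share of members called, 2 of 10, was below the 33.3% of all genes. All Keap1-/- arrays lay below all WT arrays for 4 members, Fgf10, Fgfr2, Fgfr3 and Spry2 (24.3% of all genes), and above for Etv5 (20.7%). Spry1 (-0.32, adjusted p = 0.136), Fgf10 (-0.22, adjusted p = 0.0795) and Fgfr2 (-0.25, adjusted p = 0.103) did not pass the test. For Spry1 the sign of that estimate turned under median centring (+0.10), and for Fgf10 with the processed signals (+0.37).

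The 3 probes of Fgfr3 moved together, by -1.70, -1.30 and -2.02, and the second was not well above background on any Keap1-/- array, so that its fall is a bound and the mean over probes contains it. The call held with every array left out in turn, between -1.77 and -1.48 with an adjusted p of at most 0.000246, and in all 13 alternative settings, between -1.89 and -1.36. Spry2 rested on 1 of its probes, which fell by 1.18, whereas the other differed by -0.09. Its call held with every array left out in turn and was lost under median centring (-0.37, adjusted p = 0.126).

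**Figure D3:**
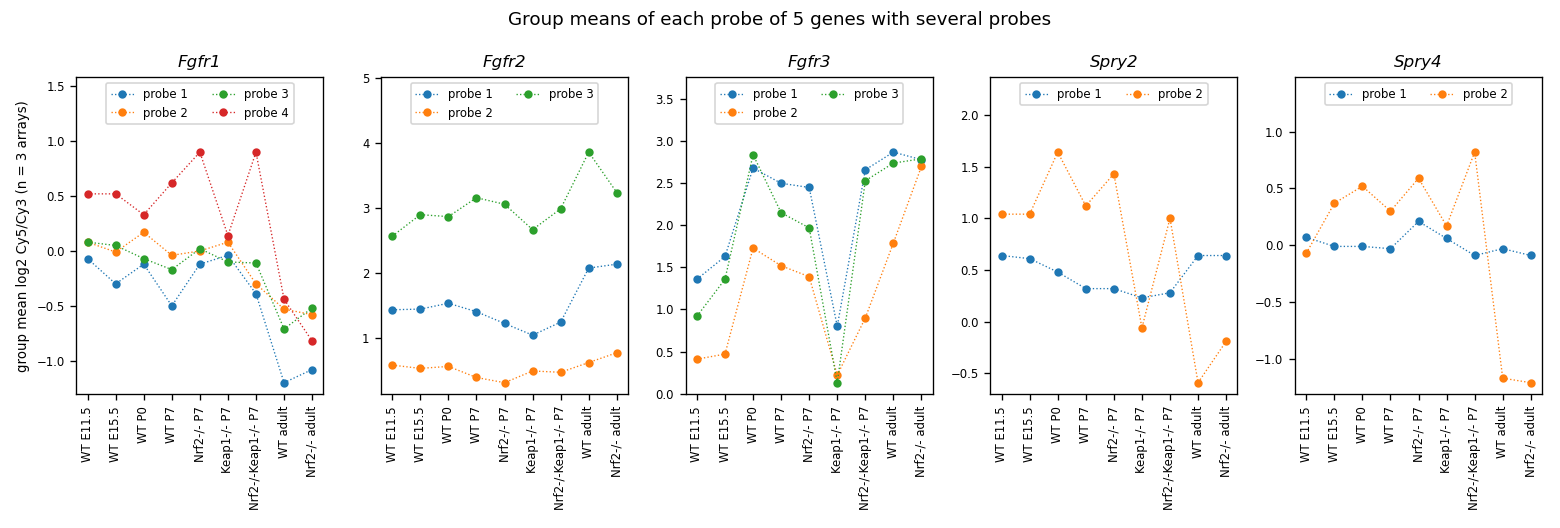
Group means of log2 Cy5/Cy3 (y axis) for each probe of Fgfr1, Fgfr2, Fgfr3, Spry2 and Spry4 across the 9 groups (x axis), one line per probe. The 3 Fgfr3 probes are all lower in Keap1-/- P7 than in WT P7 (-2.02 to -1.30). Of the 2 Spry2 probes, 1 is nearly level between those groups and higher in WT adult than in WT P7. Of the 2 Spry4 probes, 1 stays nearly level over all groups.

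Without Nrf2 as well as Keap1, no member passed the same test against WT. Nrf2-/-Keap1-/- esophagi gave 0 calls of 10 (0.426% of all genes were called), and 2 passed an unadjusted p of 0.05, Spry1 (+0.45, adjusted p = 0.169) and Spry4 (+0.23). Keap1-/- set against Nrf2-/-Keap1-/- gave 4 lower members and 0 higher, beside 18.3% and 15.1% of all genes, or 33.4% in all. Fgfr3 was 3.12-fold lower in the mean of its probes (-1.64 ± 0.16, adjusted p = 3.39e-05; -1.86, -0.67 and -2.40 by probe), Spry1 1.70-fold (-0.77 ± 0.15, adjusted p = 0.00343), Spry2 1.47-fold (-0.55 ± 0.15, adjusted p = 0.0147) and Fgf10 1.21-fold (-0.27 ± 0.09, adjusted p = 0.0358). All 10 estimates were negative, with a median of -0.21 against -0.04 over all genes. This comparison and the one against WT share the Keap1-/- arrays. The only Spry1 probe was outlier-marked on all 3 arrays of each other P7 group and on 0 of 3 Keap1-/- arrays. Its differences therefore set marked spots against unmarked ones.

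The weakest of the 4 was Fgf10, which kept its call in 6 of 12 runs with 1 array left out, with values from -0.34 to -0.23, and lost it without Nrf2-/- replicate 1, Keap1-/- replicate 2 or 3, or any Nrf2-/-Keap1-/- array. Spry2 lost its call without Keap1-/- replicate 3 (-0.43) or Nrf2-/-Keap1-/- replicate 1 (-0.53). Under median centring Fgfr3 alone kept its call (-1.54), and Spry1 (-0.65, adjusted p = 0.0532), Spry2 (-0.42, adjusted p = 0.1) and Fgf10 (-0.19, adjusted p = 0.131) lost theirs. With slide as a random block, Fgfr3 was called against WT (-1.67, adjusted p = 6.07e-06) and against Nrf2-/-Keap1-/- (-1.65, adjusted p = 1.07e-05). No slide held both groups of either comparison, so that this block cannot take a slide effect out of them. The F-test over the 4 genotypes called Fgfr3 (adjusted p = 5.07e-05), Spry1 (adjusted p = 0.0133) and Spry2 (adjusted p = 0.00848), beside 33.8% of all genes.

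Fibroblast and smooth muscle markers moved with Keap1 too. Of the 9 fibroblast markers 7 were lower in Keap1-/- than in WT P7 and 6 lower than in Nrf2-/-Keap1-/-, and of 7 smooth muscle markers 5 were lower and 1 higher than in WT. The skeletal muscle list did not fall, at 4.12 to 4.59 in Keap1-/- against 3.34 to 4.37 in WT. Acta1 (+0.95) and Myh1 (+0.59) were called higher and its other members were not called. The squamous list kept its range, 4.06 to 4.38 in Keap1-/- against 4.10 to 4.66 in WT, with 1 member higher and 2 lower of 8. Another epithelial list, of 7 columnar, airway and ciliated genes, was lower in Keap1-/-. It ranged from -0.33 to 0.6 in WT, from -1.37 to -1.05 in Keap1-/- and from -0.42 to 0.39 in Nrf2-/-Keap1-/- esophagi. Of 4 leukocyte and 5 cell cycle markers, 3 each were lower in Keap1-/- than in WT. The adipocyte list of 4 genes ranged from 1.55 to 2.51 in WT, from 2.20 to 3.27 in Keap1-/- and from 4.42 to 5.57 in Nrf2-/-Keap1-/- esophagi, with 3 of 4 lower in Keap1-/- than in Nrf2-/-Keap1-/-. The part of these shifts in the Fgf10, Fgfr3 and Sprouty differences was not tested.

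Of the genes in the 5 pathway lists, Etv4, the sister factor of Etv5, differed most between Keap1-/- and WT. Etv4 stood at 0.38 ± 0.08 (SD, n = 3) in Keap1-/- against -1.36 ± 0.16 in WT and -1.29 ± 0.14 in Nrf2-/-Keap1-/-, a rise of 1.74 ± 0.11 against WT (3.34-fold, adjusted p = 1.87e-06) and of 1.67 ± 0.11 against Nrf2-/-Keap1-/- (adjusted p = 2.57e-06). Etv5 itself stood at -0.09 ± 0.01 in Keap1-/- against -0.31 ± 0.22 in WT and was not called. With 5 of 10 called, the ERK-responsive list held 3 higher members, Etv4, Fosl1 (+0.81 ± 0.23) and Myc (+0.58 ± 0.14), and 2 lower ones, Fos (-0.84 ± 0.28) and Etv1 (-0.64 ± 0.17).

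The remaining lists were mixed. Of 14 other Fgf genes, Fgf18 (-0.76 ± 0.21, adjusted p = 0.0186) and Fgf5 (-0.63 ± 0.19, adjusted p = 0.027) were lower against WT. Fgf12 (-0.50 ± 0.14) joined them against Nrf2-/-Keap1-/-. Of 12 receptors and cofactors, 2 were higher and 3 lower against WT, led by the decoy receptor Fgfrl1 (+1.1 ± 0.35), the glypican Gpc1 (+0.99 ± 0.25) and Flrt3 (-0.80 ± 0.17). Of 18 transducers, 5 were higher and 3 lower, with Mapk3 highest (+1.16 ± 0.27, adjusted p = 0.00783) and the docking protein Frs2 lowest (-0.71 ± 0.11, adjusted p = 0.000703). Of 7 feedback inhibitors, Spred1 was lower (-0.38 ± 0.12, adjusted p = 0.0308), and against Nrf2-/-Keap1-/- Dusp9 was higher (+0.67 ± 0.12) and Spred2 lower (-0.60 ± 0.13). No gene of the 5 lists was called in Nrf2-/- or in Nrf2-/-Keap1-/- against WT. Fgf18, Fgf5, Fgfrl1 and Spred1 each lost the call against WT in 3 or 4 of the 12 runs with 1 array left out, among them always those without Keap1-/- replicate 2 and without Keap1-/- replicate 3, their values nearest to 0 being -0.58, -0.40, 0.58 and -0.29. Fgf12 lost the call against Nrf2-/-Keap1-/- without Keap1-/- replicate 2 (-0.48) or 3 (-0.45) or Nrf2-/-Keap1-/- replicate 1 (-0.34). Against WT, Fos was called in 5 of these runs (-1.06 to -0.69) and Fosl1 in 8 (0.53 to 1.09).

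**Figure D4:**
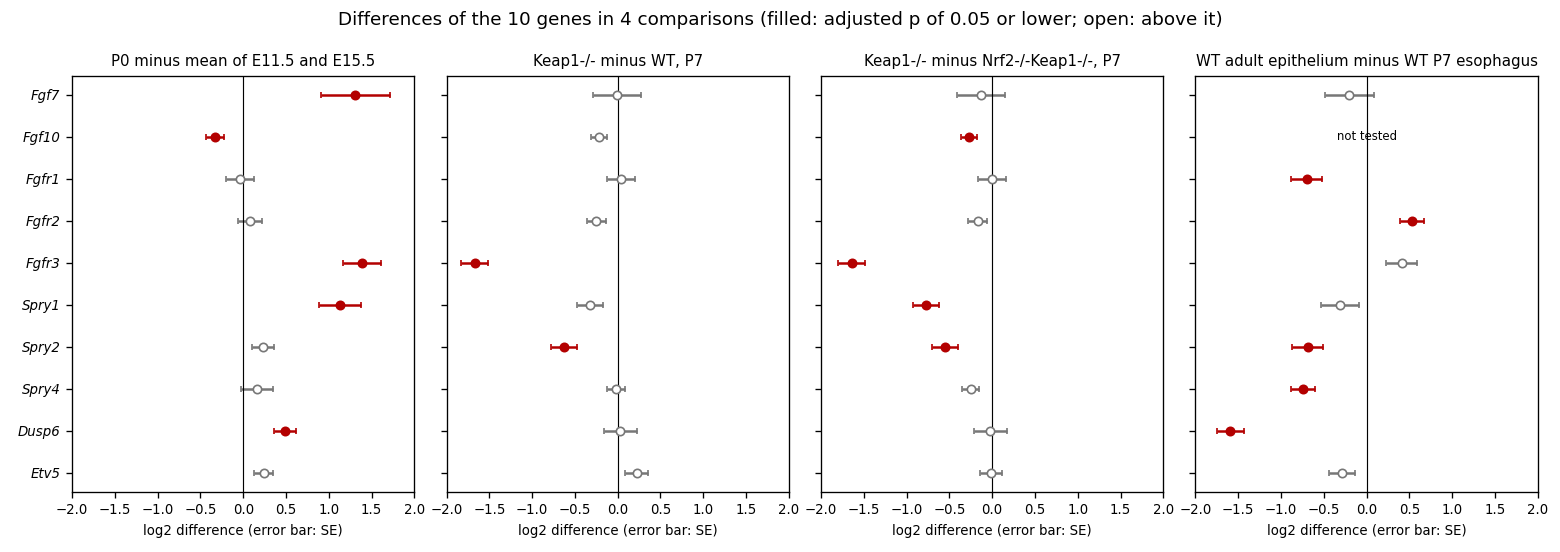
Log2 difference with its SE (x axis) of the 10 FGF genes in 4 comparisons, one panel each (embryonic mean to P0, Keap1-/- minus WT at P7, Keap1-/- minus Nrf2-/-Keap1-/- at P7, WT adult minus WT P7); filled points have an adjusted p of at most 0.05. Fgfr3 stands out to the right in the first panel (1.39) and to the left in both Keap1-/- panels (-1.67 and -1.64), and Dusp6 to the left in the last (-1.59).

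The maturation phase compared whole P7 esophagus with adult epithelium. Of 9 members tested, 4 were lower and 1 higher in WT adult, beside 22.9% and 19.9% of 18189 genes, or 42.8% in all. Dusp6 was 3.02-fold lower (-1.59 ± 0.16, adjusted p = 0.000274), Spry4 1.67-fold (-0.74 ± 0.14, adjusted p = 0.00494), Fgfr1 1.62-fold (-0.70 ± 0.18, adjusted p = 0.019) and Spry2 1.62-fold (-0.69 ± 0.18, adjusted p = 0.0171). Fgfr2 was 1.45-fold higher (+0.53 ± 0.14, adjusted p = 0.0179), a direction that turned when each spot kept its own local background, where it was -0.33 (adjusted p = 0.582). Fgfr3 did not pass the test (+0.41, adjusted p = 0.104), and the same setting turned its sign (-0.42). Fgf10 had too few arrays above background to be tested.

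Dusp6 kept its call with each of the 6 arrays left out in turn, between -1.72 and -1.48, and in the 13 alternative settings that gave it a value, between -1.69 and -1.08, but it could not be fitted without outlier-marked spots. Spry4 was called in those 6 runs too, and it lost the call when each spot kept its own local background (-0.30, adjusted p = 0.155). Its change came from 1 probe, -1.47 against 0.00 for the probe that never rose above background. The Spry2 probes disagreed, at -1.71 and +0.33. All 4 probes of Fgfr1 were lower (-1.05 to -0.49). Of these, 1 was not well above background on any WT adult array, so that its fall is a bound and the mean over probes contains it. All 3 probes of Fgfr2 were higher (0.23 to 0.70), before the change of background setting that turned Fgfr2.

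Single arrays mattered for the other 3. Fgfr1 and Spry2 lost their calls without P7 replicate 1 (-0.66 and -0.62) or 3 (-0.55 and -0.60) or without adult replicate 1 (-0.68 and -0.69) or 3 (-0.64 and -0.59). Fgfr2 lost its call without P7 replicate 1 (+0.47) or adult replicate 2 (+0.51). Within the 1 scan that held all P7 and 2 of the adult arrays, the differences were -1.55 for Dusp6, -0.71 for Spry4, -0.64 for Fgfr1, -0.59 for Spry2 and +0.45 for Fgfr2.

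All 9 fibroblast, all 9 skeletal muscle and all 4 endothelial markers were lower in adult epithelium than in P7 esophagus, as were 5 of 7 smooth muscle markers, whereas 3 of 8 squamous markers were higher and none lower. Loss of the wall of the esophagus and change with age cannot be told apart for any of the 5 members called.

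Other pathway genes split at this step. Dusp4 was 3.18-fold lower (-1.67 ± 0.21, adjusted p = 0.000777), beside Dusp7, a cytoplasmic relative of Dusp6, which was higher (+1.17 ± 0.23), and Spred2 (+0.77 ± 0.16), so that of 7 other feedback inhibitors 2 were higher and 2 lower. Of 12 receptors and cofactors 2 were higher and 5 lower, led by Fgfrl1 (-2.53 ± 0.42), Gpc1 (-1.64 ± 0.29) and Fgfr4 (-1.29 ± 0.14). Of 17 transducers 5 were higher and 1 lower, with Mapk3 (+0.91 ± 0.18) and Hras (+0.79 ± 0.12) among the former. The ligand Fgf22, a relative of Fgf7 and Fgf10, was not well above background at P7. It was at least 2.12-fold higher in adult epithelium (adjusted p = 0.00304). Fgf13 was not well above background in adult epithelium and at least 2.03-fold lower there (adjusted p = 0.0167). Fgf18 was lower too (-0.97 ± 0.20). Of 11 Fgf genes tested beside the members, 1 was higher and 4 were lower. Etv1 (-1.62 ± 0.21) and Fos (-1.60 ± 0.28) were lower and Myc higher (+0.88 ± 0.13) of 10 ERK-responsive transcripts. Dusp4, Dusp7, Spred2, Fgf13, Fgf22, Hras and Fos lost their calls when each spot kept its own local background, in the same direction, and Fgf13 also did without adult replicate 3 (-1.20).

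In adult epithelium without Nrf2 no member was called (0.444% of genes were), and 1 passed an unadjusted p of 0.05. That was Dusp6, higher on all 3 Nrf2-/- arrays than on all WT arrays (+0.56 ± 0.13, adjusted p = 0.129) and by 0.65 within the scan that held 2 Nrf2-/- arrays and 1 WT array. The skeletal muscle list ranged from 0.85 to 1.83 in Nrf2-/- against 0.23 to 0.95 in WT adult epithelium, with 0 of its 9 genes called and a median difference of 0.84, and its part in the Dusp6 difference was not tested. Dusp6 passed the threshold when each spot kept its own local background (+0.65, adjusted p = 0.0406). WT adult replicates 1 and 2 came from scan 1 with the older software version. All Nrf2-/- adult arrays came from scans 2 and 3 with the newer one. The Dusp6 probe was outlier-marked on 2 of 3 WT adult arrays and on 0 of 3 Nrf2-/- adult arrays. Fgfr3 was the other member whose groups lay apart, also higher, as 13.3% of all genes were. The interaction of age and Nrf2 genotype called none of the 10, and none passed an unadjusted p of 0.05 (0.0919% of genes were called).

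Across all 27 arrays, which share the split between whole esophagus and epithelium, Dusp6 ran with Fgfr1 (Pearson r = 0.82), Spry4 (0.82) and Etv5 (0.79), and against Fgfr2 (-0.78). Of the 18237 genes well above background on at least 14 arrays, those most like each member in pattern were Tm4sf1 and Medag for Fgf7 (both 0.81), Tox (0.96) and Ttbk2 (0.95) for Fgf10, Idh2 (0.95) and Lrrc75a (0.94) for Fgfr1, and Zfp467 (0.87) and Tfap2c (0.85) for Fgfr2. For Fgfr3 they were Acer3 (0.95) and a transcript named only by its Ensembl identifier (0.93), for Spry1 Aspn (0.91) and Wdr44 (0.90), for Spry2 Tusc3 (0.93) and B3galnt1 (0.92), for Spry4 Emid1 and an unnamed probe (both 0.94), for Dusp6 Lamc1 (0.94) and Aatk (0.92), and for Etv5 Dnajb4 and Mcf2l (both 0.89). These correlations are descriptions of arrays that are not independent.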

How the data were processed

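The authors hybridised 27 two-colour Agilent 4x44k arrays and deposited scanner files with a mean spot intensity and a median local background intensity for either dye, processed signals of Feature Extraction, and log10 ratios of Cy5 to Cy3, which equalled the ratios of that software. The file headers name versions 10.5.1.1 and 10.7.3.1, on 11 slides in 4 scans. Log2 Cy5/Cy3 was computed from the deposited intensities. Dyes were not swapped, so a dye effect of a probe stays in its level and not in differences between groups.

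Background was corrected by normexp (offset 50), where any local background that exceeded its array's median more than 5-fold was set to that median. Loess followed within arrays, with control spots at weight 0 and outlier-marked spots kept. Replicate spots were averaged per probe, and probes per gene symbol. Of 41174 probes, 65.4% matched a current RefSeq symbol and the others kept the name in the files. Genes entered a fit with a probe well above background (Cy5) on 3 or more of its arrays. Fits held the 12 arrays of the WT ages, the 12 P7 arrays, the 6 of WT P7 and WT adult, the 6 adult arrays, or the 12 of both ages and Nrf2 genotypes. Adjusted p-values are limma's, by Benjamini-Hochberg over all genes of a fit. The software was limma 3.58.1 in R 4.3.3, with data.table (1.17.8) and statmod 1.5.0, tested on simulated data. Values after ± are SE for differences and SD for groups.

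On each array 58.9% to 69.3% of spots were well above background in Cy5, and a fall of dimmer spots cannot be measured. The number of arrays, 3 a group, limits the precision, and p-values measure the spread between these esophagi. The members, pathway lists and marker lists were chosen with earlier results of these data known. Named are all members, up to 3 called genes with the largest change per pathway list, and genes set beside a member of the same role, such as Etv1 and Myc beside Etv5. Alternatives were other backgrounds, signals, normalizations, filters, probe rules, blocks and sets of arrays.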

Additional observations from a re-analysis of the deposited data

How the results depend on the processing

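Counts of members called moved by over 1.5 times under these alternatives. From E15.5 to P0 the count of 3 became 1 without outlier-marked spots, 0 with each spot's own local background, and 1 with Feature Extraction's processed signals, with the deposited ratios and with median centring. From the embryonic mean to P0 the count of 5 became 1 without outlier-marked spots, where Spry1 and Dusp6 could not be fitted, and 3 with processed signals, deposited ratios, median centring or slide as a random block. From P0 to P7 it was 1 with processed signals and with deposited ratios. From E11.5 to P7 it was 1 with each spot's own local background. For the F-test over 4 ages the count of 3 became 1 with own local background and 5 with all 27 arrays in one fit or with the replicate block. For Keap1-/- against WT it was 4 with scale normalization, for Keap1-/- against Nrf2-/-Keap1-/- 1 with median centring, and for the F-test over genotypes 5 with slide as a random block. From P7 to adult the count of 5 became 2 with own local background, 2 with median centring and 3 with the brightest probe. For Nrf2-/- against WT adult it was 3, and for the interaction 1, with own local background. Without both doubtful embryonic arrays it was 3 from E11.5 to E15.5, where the share of all genes called went from 0% to 13.8%. For the other settings, and for the runs with 1 array left out, the share of all genes called is not given. A shift in the members therefore cannot be told apart from a shift in all genes. The cause of these shifts was not tested. With 1 array left out, counts ranged from 1 to 3 (E15.5 to P0), 2 to 3 (E11.5 to P7), 2 to 5 (embryonic mean to P0), 2 to 4 (F over ages), 2 to 3 (Keap1-/- against WT), 2 to 4 (Keap1-/- against Nrf2-/-Keap1-/-), 2 to 4 (F over genotypes) and 2 to 5 (P7 to adult), and were 0 in every run of the comparisons with 0 calls. Directions turned for Fgfr2 (-0.33), Fgfr3 (-0.42) and Gab1 (-0.20) from P7 to adult with own local background, for Fgf10 in Keap1-/- against WT with processed signals (0.37) and with deposited ratios (0.37), and with median centring for Dusp6 from E11.5 to P7 (-0.12) and Spry1 in Keap1-/- against WT (0.10). Median centring also moved the median of all genes, by 0.11 for Keap1-/- against WT, 0.40 for the adult genotypes and 0.30 for the interaction. Outside the runs with an array left out, the members' differences held direction and side of the threshold in 328 of 399 cases, lost the call in 54, gained it in 11 and turned in 6. Replicate numbers were not taken to pair the arrays, since not every correlation within a number passed 0.1: correlations of deviations within a number ran from -0.45 to 0.64 in the age fit, from -0.36 to 0.36 in the genotype fit, from -0.10 to -0.03 in the P7 and adult fit, from -0.14 to 0.06 in the adult fit and from -0.19 to 0.24 in the fit of both ages and Nrf2 genotypes. In the age fit the median was 0.10 within numbers against -0.05 between them, and 8 of 12 arrays correlated best with their own number, against 4 of 12, 0 of 6, 2 of 6 and 4 of 12 in the other fits, in that order. With the replicate block 4 members were called from E15.5 to P0, 4 from the embryonic mean to P0, 3 from E11.5 to P7, 2 in Keap1-/- against WT, 3 against Nrf2-/-Keap1-/- and 5 from P7 to adult. Signal over background limits Fgf7 before birth and Fgf10 and Spry4 in adult epithelium. It also limits 1 probe of Fgfr1 in WT adult epithelium and 1 of Fgfr3 in Keap1-/- P7.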
